A study of Mus musculus with 8 samples.

Results

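The genes described here build, sulfate, trim and carry heparan sulfate. They are 33 genes picked by name from the 41388 genes of each table, and all 33 matched a single entry. Of these, 30 passed the low-count filter, among 13933 genes tested in all. RNA was sequenced from macrophages of the epididymal fat pad (eWAT), a visceral adipose depot of male mice. The donors were 4 male MitoFat mice fed normal chow, a strain in which adipocytes alone carry a mitochondrial reporter (mtD2). Live cells positive for CD45, F4/80 and CD64 were sorted, after collagenase digestion of each fat pad, into cells with the reporter signal (mtD2+) and cells without it (mtD2-). This gave 4 mtD2+ and 4 mtD2- libraries, paired by mouse, so both groups share strain, sex, diet and tissue. The sources used here do not state the age of the mice or how many cells were sorted.

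Heparan sulfate is a long sulfated sugar chain attached to a core protein. A linker of 4 sugars is built on serines of the core, the chain is polymerised on it, and sulfotransferases then modify it in the Golgi. On macrophages the chains bind chemokines, growth factors, lipoproteins and other cargo at the cell surface. In the study's paper heparan sulfate was reported to be needed for macrophages to take up mitochondria. The comparison therefore asks whether macrophages that hold adipocyte mitochondria differ from their neighbours in RNA of this pathway. RNA of these genes measures neither the amount of the chains nor their sulfation.

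RNA of the enzymes that supply, build and modify the chain passed the test for 0 of 20 tested genes. Of the 8 core protein genes 0 were called higher and 1 lower. Over all tested genes 5.50% were called, 3.72% higher and 1.78% lower. At that share few or no calls fall in lists this short, here and by role below. Fold changes were negative for 6 of the 8, and for 6979 of all 13933 tested genes. The summed level of the cores, most of it Sdc4, was higher in mtD2+ in 3 of 4 mice. Hspg2, which encodes perlecan, a secreted basement membrane core, fell 5.63-fold in mtD2+ macrophages, on 113 counts over mtD2+ and 558 over mtD2- libraries. That call was lost on leaving out mouse 1, 3 or 4, and summed fibroblast markers were lower in the same libraries. Syndecan-4 RNA was higher in mtD2+ cells of 3 mice, and syndecan-3 RNA was lower in all 4 mice. Neither syndecan passed the adjusted threshold in the edgeR test, with adjusted p = 0.0612 for Sdc4 and 0.0545 for Sdc3.

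The 8 libraries held 18462287 to 27464399 gene-assigned counts. The sort markers were detected in every library. Ptprc, which encodes CD45, had a log2 fold change of 0.02, Adgre1, which encodes F4/80, of -0.55 (adjusted p = 0.0336), and Fcgr1, which encodes CD64, of -0.44 (adjusted p = 0.0554). The mtD2- library of mouse 4 stood apart on the first principal component, at -81.1, against 18.7 to 60.5 for mtD2+ and -28.3 to -3.61 for the other mtD2- libraries. Markers of fibroblasts and adipocyte precursors were lower in mtD2+ libraries, with 6 of 13 tested past the test and summed levels of 230.1 to 288.2 CPM in mtD2+ against 805.1 to 1388.6 CPM in mtD2-.

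Levels in CPM are counts per 1e6 tested-gene counts, scaled with the TMM factors of the edgeR test. All fold changes are mtD2+ over mtD2-, and genes with a Benjamini-Hochberg adjusted p under 0.05 were called. Of the 30 tested members 0 were called higher and 1 lower. In this comparison 5.50% of all tested genes were called, 3.72% higher and 1.78% lower, so the members' 3.33% is near the background. At an unadjusted p under 0.05 edgeR passed 9 of the 30 members, against 22.8% of all tested genes. The median log2 fold change was -0.09 over the members and 0.00 over all tested genes. The direction was the same in all 4 mice for 8 of the 30 members, and for 32.3% of all tested genes.

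Levels between genes can only be compared per gene length, for which the authors' RPKM was used. Sdc4 had the highest level by far, with 941.1 ± 76 RPKM in mtD2+ and 645.8 ± 213.5 RPKM in mtD2- (SD, n = 4 each). Its mean over all libraries was above that of 99.5% of tested genes. Sulf2 came next, at 74 ± 9.26 RPKM in mtD2+ and 62.3 ± 5.47 RPKM in mtD2-. It was followed by Sdc3, at 40.2 ± 6.46 RPKM in mtD2+ and 55.7 ± 10.6 RPKM in mtD2-. The ranges of Sulf2 and Sdc3 met only in mtD2-, where Sdc3 reached 69.4 RPKM and Sulf2 began at 55.6 RPKM. The enzymes of supply, linker, chain and modification lay below these, from Slc35b2 at 23.6 ± 1.63 RPKM in mtD2+ and 23.2 ± 9.06 RPKM in mtD2-, down to genes with almost no reads.

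**Figure D1:**
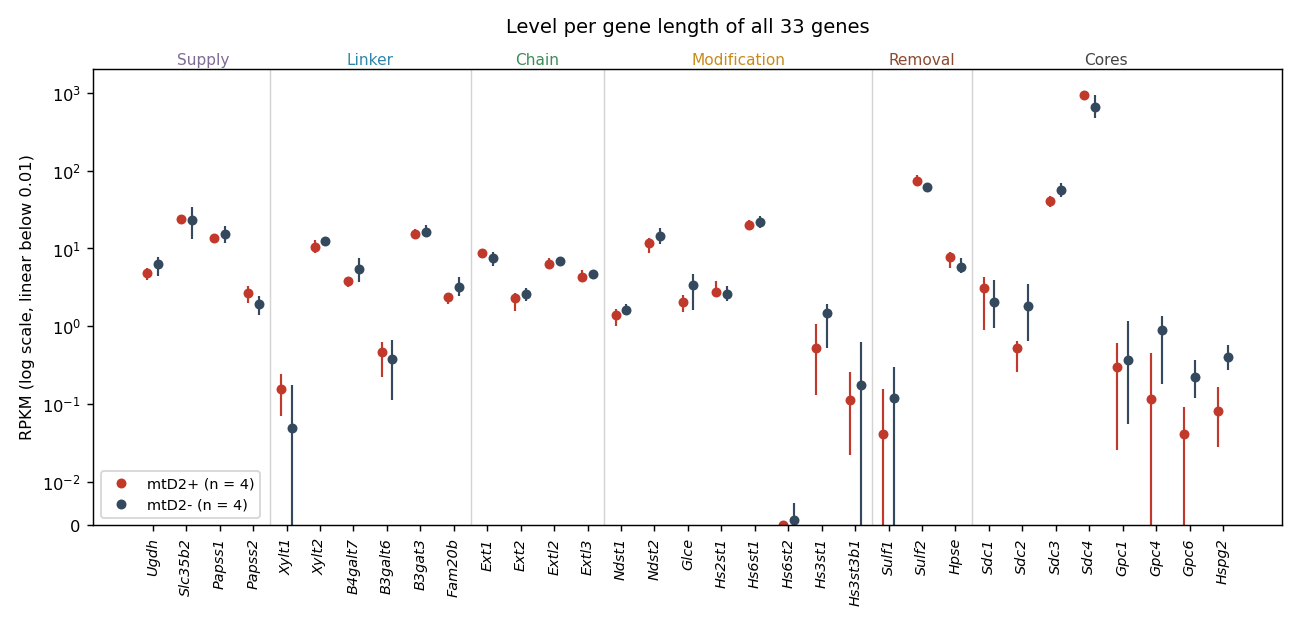
RPKM of all 33 genes by role, on a log axis that is linear below 0.01. Points are means and bars run from the lowest to the highest of 4 libraries, mtD2+ left of mtD2-. Sdc4 stands above all others at 941.1 RPKM in mtD2+ and 645.8 RPKM in mtD2-, and the pairs of most enzymes overlap.

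In several families a single listed paralogue held most of the RNA, in both populations. Xylt2 held 98 to 99.3% of the summed RPKM of the xylosyltransferases in mtD2+ libraries and 98.5 to 100% in mtD2-. Ndst2 held 88.5 to 90.1% of the Ndst1 and Ndst2 sum in mtD2+ and 85.4 to 92.3% in mtD2-. Papss1 held 79 to 87.9% of the Papss1 and Papss2 sum in mtD2+ and 85.4 to 92.2% in mtD2-. Sulf2 and Hs6st1 were almost alone in their families: Sulf1 reached at most 0.178% in mtD2+ and 0.448% in mtD2-. Hs6st2 had 0 counts in mtD2+ and 1 count in mtD2-. Sdc4 held 94.8 to 96.4% of the syndecan sum in mtD2+ and 87.4 to 93.4% in mtD2-. Sdc3 made up most of the remainder, with 3.11 to 4.79% in mtD2+ and 5.85 to 12.1% in mtD2-. The CPM levels of Sdc4 and of Sdc3 each overlapped between the groups.

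The supply genes make and carry the activated sugar and sulfate, and 0 of 4 passed the test. Ugdh, which makes the glucuronic acid donor, averaged 33.6 ± 5.71 CPM in mtD2+ and 42.3 ± 9.98 CPM in mtD2- (log2 -0.31, 95% interval -0.69 to 0.06, adjusted p = 0.302, edgeR). Slc35b2 carries the sulfate donor PAPS into the Golgi and averaged 56.1 ± 4.48 CPM in mtD2+ and 53.9 ± 24.7 CPM in mtD2-. Papss1 and Papss2 make PAPS. Papss1 had a log2 fold change of -0.11 (interval -0.48 to 0.27). Papss2 had 0.51 (interval -0.19 to 1.2), with levels of 11.6, 12.1, 7.31 and 8.43 CPM in mtD2+ and 8.31, 4.69, 5.68 and 9.61 CPM in mtD2- for mice 1 to 4. The Papss2 groups overlap, and mouse 4 ran against the other 3. The ratio of Papss2 to Papss1 was higher in mtD2+ in 2 of 4 mice.

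Of the linker genes 0 of 6 passed. Xylt2, which starts the linker by adding xylose to serine, averaged 41.8 ± 6.92 CPM in mtD2+ and 49 ± 8.41 CPM in mtD2- (log2 -0.23, interval -0.63 to 0.18). B4galt7 and B3galt6 add the galactoses. B4galt7 had a log2 fold change of -0.44 (interval -1.06 to 0.17), and its exons overlap an antisense gene over 8.29% of their length. B3galt6 was low, at 1.54 ± 0.599 CPM in mtD2+ and 1.19 ± 0.799 CPM in mtD2-. B3gat3, which adds the closing glucuronic acid, averaged 25.1 ± 2.41 CPM in mtD2+ and 25.4 ± 3.47 CPM in mtD2-. Its interval ran from -0.4 to 0.36, and the sign of its log2 fold change (-0.02) turned to 0.01 with upper-quartile scaling. Fam20b, the kinase that phosphorylates the xylose, stood at -0.33 (interval -0.74 to 0.08). Xylt1 had 6, 14, 21 and 13 counts in mtD2+ cells and 17, 1, 0 and 1 in mtD2- cells of mice 1 to 4. Too few reads support a fold for it (log2 2.87, interval -0.37 to 6.12).

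Of the chain genes 0 of 4 passed, and all 4 intervals lay within a 2-fold change either way. Ext1 and Ext2 together form the polymerase. Ext1 had 68.8, 67.6, 66.5 and 82.8 CPM in mtD2+ and 57.4, 68.1, 45.9 and 69.1 CPM in mtD2- for mice 1 to 4. It was higher in mtD2+ in mice 1, 3 and 4 and level in mouse 2 (log2 0.26, interval -0.02 to 0.55, adjusted p = 0.259, edgeR). Ext2 had a log2 fold change of -0.12 (interval -0.61 to 0.36). Extl3, which adds the first glucosamine of the chain, had -0.08 (interval -0.41 to 0.26). Extl2, which can add a glucosamine that ends a linker, had -0.07 (interval -0.48 to 0.33).

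Of 8 modification genes 6 were tested and 0 passed. Ndst1 and Ndst2 swap acetyl for sulfate on glucosamine. Ndst2 averaged 39.4 ± 7.43 CPM in mtD2+ and 46.8 ± 8.97 CPM in mtD2-, lower in mtD2+ in 4 of 4 mice (log2 -0.25, interval -0.53 to 0.03). Ndst1 had a log2 fold change of -0.2 (interval -0.82 to 0.42). Glce, the epimerase that turns glucuronic into iduronic acid, had the largest fold change of these enzymes after the barely read Xylt1 and Hs3st1. It stood at 13.5, 17.4, 14.7 and 11 CPM in mtD2+ and at 22.2, 24, 30.3 and 11.9 CPM in mtD2- for mice 1 to 4. Every mouse had less in mtD2+, but the mtD2- library of mouse 4 lay inside the mtD2+ range (log2 -0.59, SE 0.2, interval -1.05 to -0.13, adjusted p = 0.129, edgeR). Hs2st1, the 2-O-sulfotransferase, and Hs6st1, the main 6-O-sulfotransferase here, had log2 fold changes of 0.14 (interval -0.32 to 0.61) and -0.04 (interval -0.29 to 0.21). The 3-O-sulfotransferase genes were barely read. Hs3st1 had 53, 8, 13 and 26 counts in mtD2+ and 30, 87, 97 and 101 in mtD2-, lower in mtD2+ in mice 2, 3 and 4 and higher in mouse 1 (adjusted p = 0.244). Hs3st3b1, below the filter, had 49 counts over the mtD2+ libraries and 79 over mtD2-, of which 69 were in mouse 3. Hs3st3b1 has a close paralogue, Hs3st3a1, and whether reads were split between them was not tested.

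**Figure D2:**
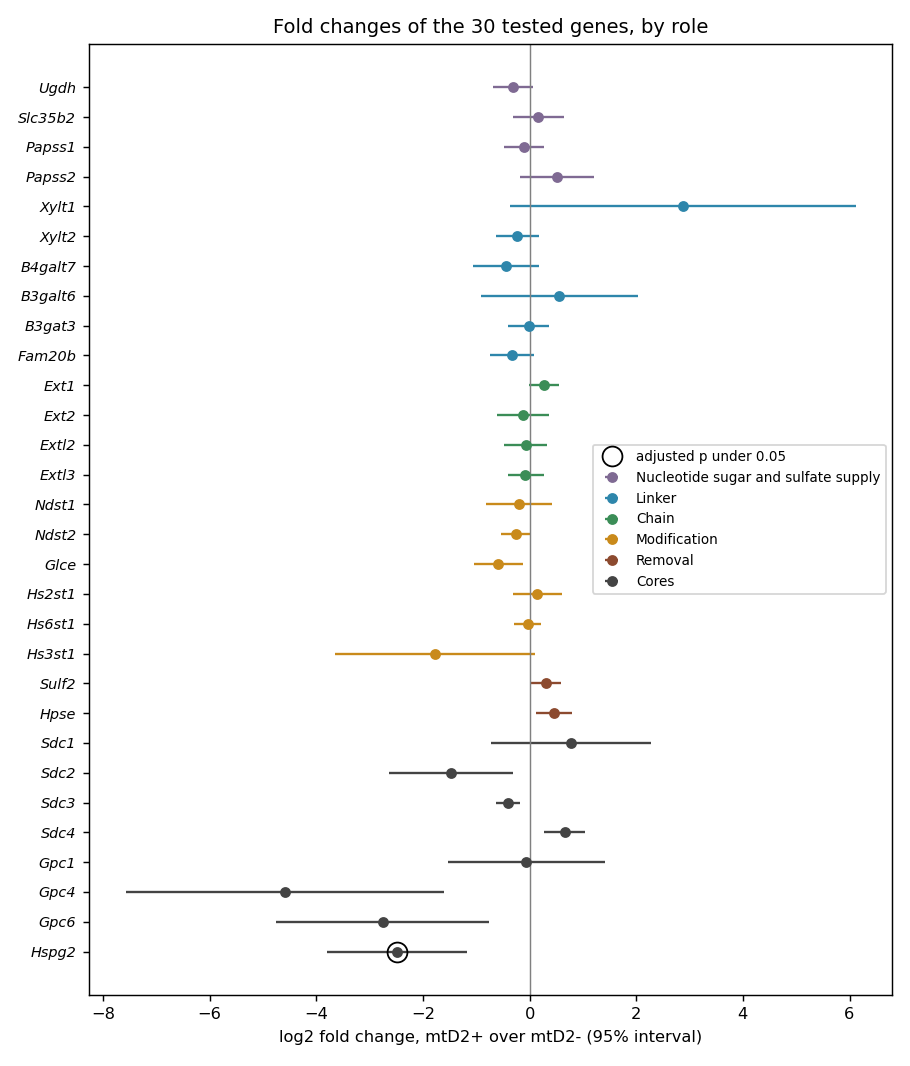
Log2 fold change of the 30 tested genes, mtD2+ over mtD2-, with 95% intervals, coloured by role. The circled gene, Hspg2 at -2.49, is the 1 gene with an adjusted p under 0.05, and the 4 chain genes lie within -0.12 to 0.26.

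Over the 4 roles from supply to modification, 14 of the 20 tested enzymes (70.0%) had an interval within a 2-fold change either way, against 55.8% of all tested genes. For the other 6, Papss2, Xylt1, B4galt7, B3galt6, Glce and Hs3st1, a 2-fold difference was not outside the interval.

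Of the 3 enzymes that act on finished chains 2 were tested, both with positive fold changes, and 0 passed. Sulf2, a secreted endosulfatase that removes 6-O-sulfates outside the cell, had 435.5, 514.3, 377.7 and 431.5 CPM in mtD2+ and 383.3, 326.5, 359.9 and 351.5 CPM in mtD2- for mice 1 to 4. All 4 mice had more in mtD2+, and the groups overlapped by the lowest mtD2+ and the highest mtD2- library (log2 0.3, SE 0.12, adjusted p = 0.186, edgeR). Over 2.65% of its exon length Sulf2 overlaps Ncoa3 on the opposite strand, a gene at 570.9 CPM with a log2 fold change of 0.67. The sources used here do not state whether counting used strand, so reads of the shared stretch cannot be told apart. Hpse, heparanase, which cuts the chains, had 30.3, 31.9, 20 and 28.5 CPM in mtD2+ and 19.5, 24.6, 15.8 and 20.7 CPM in mtD2-. It too was higher in mtD2+ in 4 of 4 mice with overlapping groups (log2 0.45, SE 0.15, adjusted p = 0.122). Sulf1, the other endosulfatase, was below the filter with 51 counts over mtD2+ and 134 over mtD2- libraries. Its level was lower in mtD2+ in 3 mice and higher in 1.

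The ratio of Sulf2, which removes 6-O-sulfate, to Hs6st1, which adds it, is free of library scaling. It was 4.19, 3.79, 3.16 and 3.64 in mtD2+ and 3.71, 2.33, 3.2 and 2.55 in mtD2-, higher in mtD2+ in 3 of 4 mice. The mean log2 difference was 0.34 ± 0.33 (SD, n = 4 mice, exact paired sign-flip test, two-sided p = 0.25, 0.375 adjusted over 3 ratios). With 4 pairs this test cannot go below 0.125.

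**Figure D3:**
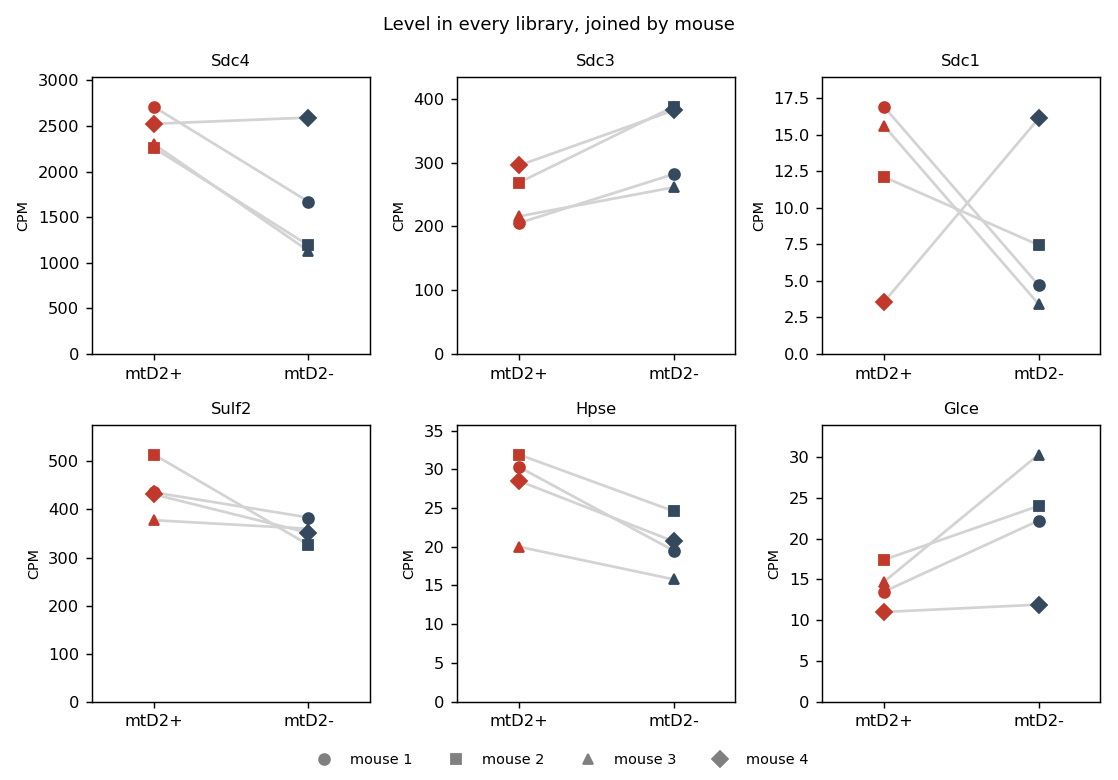
CPM of 6 genes in every library, mtD2+ left and mtD2- right, with lines joining the libraries of a mouse. Sdc3 and Glce are lower and Sulf2 and Hpse higher in mtD2+ in each mouse, while for Sdc4 and Sdc1 mouse 4 departs from the other 3.

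Syndecans are transmembrane cores that hold heparan sulfate at the cell surface. Sdc4 (GRCm38, chromosome 2, 164424247 to 164443887, minus strand) and Sdc3 (chromosome 4, 130792537 to 130826319, plus strand) carried most core RNA and had fold changes of opposite sign. Hspg2 (chromosome 4, 137468769 to 137570630, plus strand) was the called core. The 250 bases before their RefSeq starts (GRCm38.p6) are shown because these are the core genes on which the comparison turns. RefSeq starts can differ from the spans above, which come from the counted genes. The Sdc4 stretch lies wholly inside its span and the Hspg2 stretch partly inside. Capitals mark the GC box GGGCGG, the kB-like motif (GGG and TTCC with any 3 bases between) and the E-box CACGTG, searched on both strands.
Sdc4, chr2:164443189-164443438, minus strand: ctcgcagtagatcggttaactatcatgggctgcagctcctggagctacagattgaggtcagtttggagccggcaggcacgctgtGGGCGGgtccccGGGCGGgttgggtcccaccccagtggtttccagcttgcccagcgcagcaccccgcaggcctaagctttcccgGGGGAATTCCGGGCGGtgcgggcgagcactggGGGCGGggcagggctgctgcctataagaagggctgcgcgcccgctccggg
Sdc3, chr4:130792287-130792536, plus strand: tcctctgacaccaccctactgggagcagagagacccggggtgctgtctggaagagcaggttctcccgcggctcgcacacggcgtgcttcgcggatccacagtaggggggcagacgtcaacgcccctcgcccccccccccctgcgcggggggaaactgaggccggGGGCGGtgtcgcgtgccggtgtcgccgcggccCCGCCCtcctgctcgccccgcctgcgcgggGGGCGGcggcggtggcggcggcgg
Hspg2, chr4:137468553-137468802, plus strand: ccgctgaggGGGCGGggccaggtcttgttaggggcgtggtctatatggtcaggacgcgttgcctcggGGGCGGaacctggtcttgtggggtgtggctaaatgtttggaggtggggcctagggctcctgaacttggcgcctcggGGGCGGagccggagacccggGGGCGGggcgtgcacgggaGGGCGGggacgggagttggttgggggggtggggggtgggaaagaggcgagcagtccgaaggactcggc
The Sdc4 stretch holds 4 GC boxes and 1 kB-like match, GGGGAATTCC, which begins 82 bases before the start and abuts a GC box without sharing a base. The Sdc3 stretch holds 3 GC boxes and the Hspg2 stretch 5, with 0 kB-like matches in either, and none of the 3 stretches holds the E-box. Among 32851 RefSeq promoter windows of this length, 32.7% hold the GC box, 4.65% the kB-like motif and 6.02% the E-box. Of 25 members with a window, 18 hold a GC box, 2 a kB-like match and 2 an E-box. These are matches of letters, not tested sites.

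Sdc4, a syndecan that works with integrins at focal adhesions, had 2710.3, 2259.4, 2300.8 and 2523.9 CPM in mtD2+ and 1669.3, 1190.7, 1130 and 2591.7 CPM in mtD2- for mice 1 to 4. In mice 1, 2 and 3 the mtD2+ cells had more, by log2 0.7, 0.92 and 1.03. In mouse 4 the populations were level at -0.04, and its mtD2- library stood above the other 3. Over all mice the log2 fold change was 0.66 (SE 0.17, interval 0.27 to 1.04, adjusted p = 0.0612, edgeR). Without mouse 4 it was 0.88 (SE 0.1), past the test at adjusted p = 0.00473. Without mouse 1, 2 or 3 it was 0.64, 0.56 and 0.54 (adjusted p = 0.201, 0.171 and 0.246), and without the mouse block 0.57 (adjusted p = 0.245).

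A set of 18 genes known to respond to tissue dissociation, immediate early and heat shock genes chosen after values were seen, ran alongside. Their summed levels were 25771.7, 22585.8, 23321.7 and 25294.9 CPM in mtD2+ and 17028.5, 12242.6, 14554.1 and 25210.6 CPM in mtD2-. In this sum too mouse 4 had the highest mtD2- value, and mice 1 to 4 had log2 ratios of 0.6, 0.88, 0.68 and 0. Zfp36 was the largest term of the sum in every library, and 15 of the 18 genes had positive fold changes, with Fos (-0.1), Fosb (-0.02) and Ier2 (-0.29) negative. Of the 18 genes 7 were called higher (38.9%), and of all tested genes 3.72%. As the list was chosen with values known, these shares side by side are not a test. Single genes of the list were not all level in mouse 4. Their log2 ratios there ran from -1.23 for Ier2 and -1.13 for Junb to 0.7 for Hsp90aa1 and 0.9 for Dnaja1. The part of dissociation in the Sdc4 values was not tested.

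Sdc3, a syndecan with a long extracellular domain, had 205.2, 268.5, 215.7 and 295.4 CPM in mtD2+ and 281.8, 387.4, 261.1 and 381.8 CPM in mtD2- for mice 1 to 4. Each mouse had less in mtD2+, by log2 -0.46, -0.53, -0.28 and -0.37, while the groups overlapped between mice. The fitted log2 fold change was -0.41 (SE 0.1, interval -0.64 to -0.18, adjusted p = 0.0545, edgeR). Without mouse 1, 2, 3 or 4 it was -0.39, -0.37, -0.44 and -0.42 (adjusted p = 0.204, 0.143, 0.155 and 0.0835, edgeR). Without the mouse block it was -0.41 (adjusted p = 0.255). Its exons overlap 2 antisense genes, both with 0 counts.

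The ratio of Sdc4 to Sdc3 RPKM, which no scaling factor touches, was 31.1, 19.8, 25.1 and 20.1 in mtD2+ and 13.9, 7.23, 10.2 and 16 in mtD2-. All 4 mtD2+ libraries lay above all 4 mtD2- libraries. The mean log2 difference was 1.06 ± 0.5 (SD, n = 4 mice), higher in 4 of 4 mice, with the smallest p the exact paired test allows (0.125, or 0.375 adjusted over 3 ratios). The pair, with fold changes of opposite sign, was chosen after values were seen. A higher ratio in mtD2+ was favoured by that choice, which the adjustment over 3 ratios does not cover.

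Sdc1, the syndecan of epithelia and plasma cells, was low and unsteady, at 16.9, 12.1, 15.6 and 3.56 CPM in mtD2+ and 4.7, 7.45, 3.41 and 16.1 CPM in mtD2-. Mice 1, 2 and 3 had more in mtD2+ and mouse 4 had less (log2 0.77, interval -0.73 to 2.28, adjusted p = 0.532). Leaving out mouse 1, 2, 3 or 4 gave log2 fold changes of 0.32, 0.81, 0.23 and 1.58 (adjusted p = 0.867, 0.656, 0.898 and 0.0524, edgeR). Sdc2, the syndecan of mesenchymal cells, had 2.19, 0.891, 2.08 and 1.98 CPM in mtD2+ and 8.47, 2.12, 2.02 and 12.5 CPM in mtD2-. Mice 1, 2 and 4 had less in mtD2+, and in mouse 3 the populations were level (log2 -1.48, SE 0.51, adjusted p = 0.13).

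Hspg2 fell to 0.41, 2.45, 0.753 and 1.19 CPM in mtD2+ macrophages, against 4.5, 3.67, 6.27 and 8.97 CPM in mtD2- for mice 1 to 4. Every mtD2+ library was below every mtD2- library (log2 -2.49, SE 0.58, interval -3.81 to -1.18, adjusted p = 0.0434, edgeR). These levels rest on 113 counts over the mtD2+ libraries and 558 over mtD2-. The call was lost without mouse 1 (log2 -2.18, adjusted p = 0.162), mouse 3 (-2.27, 0.162) or mouse 4 (-2.34, 0.132), and without the mouse block (-2.27, 0.0651).

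Glypicans are cores anchored to the membrane by a lipid, and 0 of the 3 listed passed the edgeR test. Gpc6 had 0, 9, 8 and 16 counts in mtD2+ and 29, 29, 60 and 83 in mtD2-, with no overlap between groups (log2 -2.76, interval -4.75 to -0.77, adjusted p = 0.106). Gpc4 had 1, 0, 27 and 0 counts in mtD2+ and 70, 12, 61 and 85 in mtD2- (adjusted p = 0.0804). Its mtD2+ reads came almost wholly from mouse 3, and every mouse had fewer in mtD2+. Gpc1 had 2.6, 0.334, 0.133 and 3.28 CPM in mtD2+ and 1, 0.265, 0.294 and 6.49 CPM in mtD2-, with the highest value of either population in mouse 4 (log2 -0.06, interval -1.54 to 1.42). Gpc6 and Hspg2 are the 2 tested members whose groups did not overlap (6.67% of 30), where 12.6% of all tested genes showed no overlap 6.55% with mtD2+ higher and 6.01% with mtD2+ lower.

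The 4 low cores that were lower in mtD2+, Hspg2, Gpc4, Gpc6 and Sdc2, are also made by fibroblasts. The summed fibroblast and adipocyte precursor markers were 288.2, 265.7, 230.1 and 257.7 CPM in mtD2+ and 895.3, 853.8, 805.1 and 1388.6 CPM in mtD2- for mice 1 to 4. The sum of this list of 14 was lower in mtD2+ in each mouse, as Hspg2, Gpc4 and Gpc6 were, while Sdc2 was level in mouse 3. These 4 cores were taken because they were lower, so their direction followed from that choice and tests nothing. Of the other low cores, Gpc1 (log2 -0.06) was lower in mtD2+ in 2 mice and Sdc1 (0.77) in 1. The fibroblast sum and the 4 cores taken were highest in the mtD2- library of mouse 4. Of the 13 tested markers 12 had negative fold changes, 6 of them called. The markers not called were Pdgfrb (-2.23), Cd34 (-0.81), Dpt (-0.74), Ly6a (-0.74), Pi16 (-0.39), Dpp4 (-0.06) and Fap (0.74). Among the defining genes Col1a1 fell to 17.3 ± 4.21 CPM in mtD2+, against 99.9 ± 25.5 CPM in mtD2-, and Pdgfra fell to 2.3 ± 0.577 CPM in mtD2+, against 8.76 ± 6.51 CPM in mtD2-. Col1a1 was highest in the mtD2- library of mouse 1, at 125.0 CPM, and Pdgfra in that of mouse 4, at 18.3 CPM. Thy1 was at 0 in 5 of 8 libraries, and the other 13 markers were read in all 8. The part of fibroblast RNA in the low cores was not tested, and fewer cells of a type and less RNA per cell cannot be told apart in bulk libraries.

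The summed markers of other cell types overlapped between the groups. Endothelial markers summed to 11.5 to 37.1 CPM in mtD2+ and 17.3 to 25.1 CPM in mtD2-, with 0 of 6 tested called. Mesothelial markers summed to 8.5 to 27.9 CPM in mtD2+ and 10.4 to 33.8 CPM in mtD2- (0 of 5 called). Adipocyte markers summed to 53.9 to 147.8 CPM in mtD2+ and 49.6 to 80 CPM in mtD2- (0 of 6 called). All 6 had positive log2 fold changes, from 0.42 to 2.02. Mast cell markers, of interest because mast cells make heparin, summed to 0.797 to 12 CPM in mtD2+ and 0 to 4.21 CPM in mtD2-, with Fcer1a, Ms4a2 and Mrgprb2 at 0 in all 8 libraries. The 3 tested mast cell markers had positive log2 fold changes (1.07 to 3.01), with 0 called. B and plasma cell markers summed to 0.974 to 9.34 CPM in mtD2+ and 0.462 to 9.75 CPM in mtD2-, and T cell markers to 1.37 to 4.07 CPM in mtD2+ and 1.92 to 6.73 CPM in mtD2- (0 of 3 tested called in each).

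**Figure D4:**
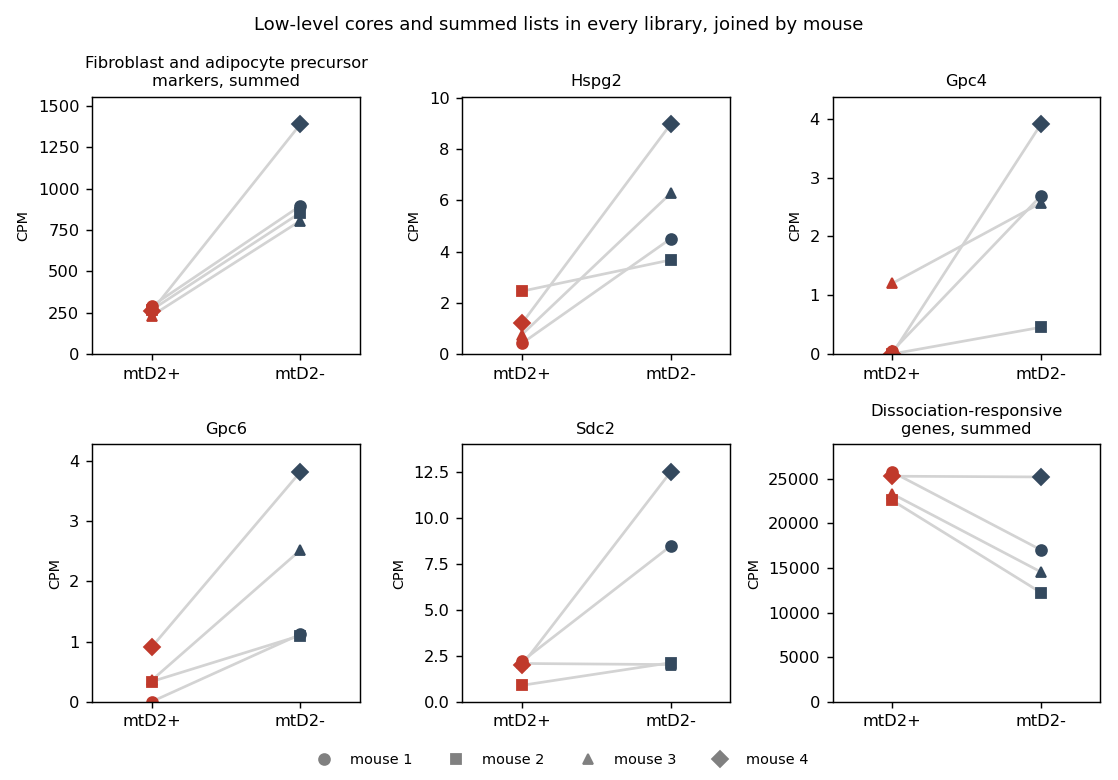
CPM of 4 low cores and of 2 summed lists in every library, mtD2+ left and mtD2- right, with lines joining the libraries of a mouse. The fibroblast and precursor sum and the low cores are highest in the mtD2- library of mouse 4, and the dissociation sum is level in that mouse.

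Of 30 further genes of the pathway 20 were tested, with 1 called higher and 0 lower (median log2 -0.08). Uap1, which makes the N-acetylglucosamine donor used by the chain and by other glycans, rose to 88.4 ± 10.4 CPM in mtD2+, against 63.5 ± 7.84 CPM in mtD2- (log2 0.48, SE 0.12, adjusted p = 0.0486, edgeR). That call was lost on leaving out any 1 mouse (log2 0.43 to 0.54, adjusted p = 0.0558 to 0.202) and without the mouse block (0.112). Ugp2, which makes UDP-glucose upstream of Ugdh, had 28.9 ± 2.24 CPM in mtD2+ and 43 ± 8.45 CPM in mtD2- (log2 -0.56, adjusted p = 0.0979). Tgfbr3, betaglycan, a part-time carrier of the chain, had 1.78 ± 1.32 CPM in mtD2+ and 8.77 ± 5.8 CPM in mtD2- (log2 -2.56, adjusted p = 0.0506). Gpc3, another glypican, had a log2 fold change of -1.85 (adjusted p = 0.072). Tgfbr3 and Gpc3, like the low cores, were highest in the mtD2- library of mouse 4. Of the 30 genes, 7 had 0 counts in all libraries, among them Hpse2, Ndst4 and 4 sulfotransferase genes.

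The lysosomal enzymes that take heparan sulfate apart after uptake were tested for 10 of 10, and 0 passed (median log2 0.02). Arsg, a sulfatase of the 3-O position, had 14.7, 18.6, 18.1 and 15.2 CPM in mtD2+ and 13, 7.3, 6.77 and 5.89 CPM in mtD2-. All mtD2+ libraries were above all mtD2- libraries (log2 1.08, SE 0.27, adjusted p = 0.0548, edgeR). Sgsh, which removes N-sulfate, had a log2 fold change of 0.48 (adjusted p = 0.218).

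Chondroitin and dermatan sulfate grow on the same linker, and of 16 genes of that branch 11 were tested and 0 passed (median log2 -0.09). Chst12, a chondroitin sulfotransferase, had 49.8 ± 8.83 CPM in mtD2+ and 71.9 ± 18.8 CPM in mtD2- (log2 -0.51, adjusted p = 0.121). Chsy1, a chondroitin polymerase, stood at -0.34 (adjusted p = 0.234) and its partner Chpf, hardly read, at -1.56 (adjusted p = 0.342).

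**Figure D5:**
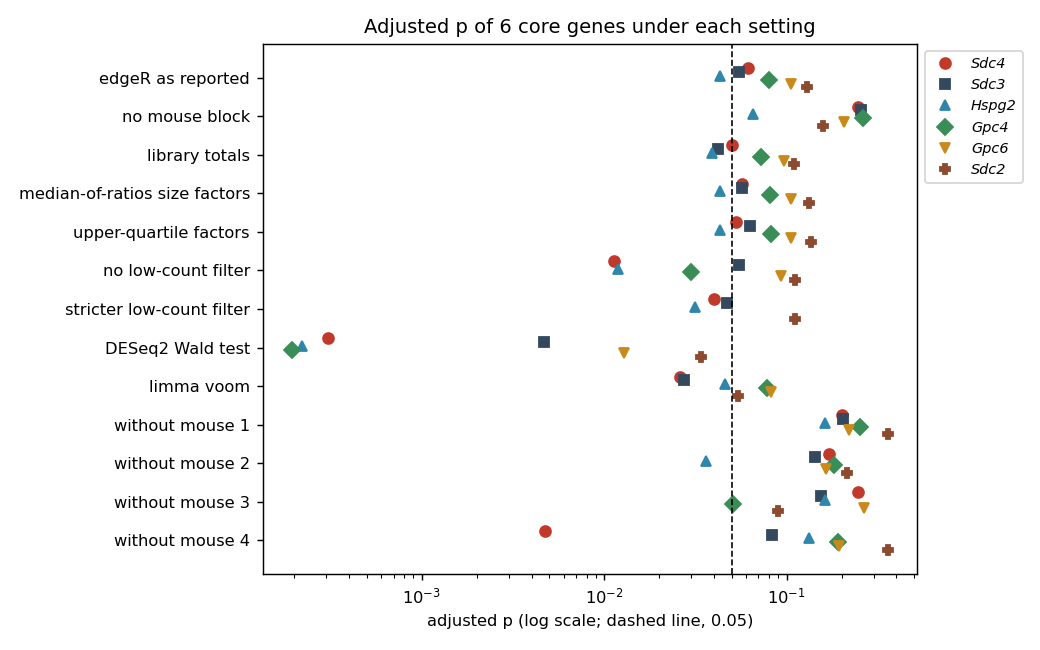
Adjusted p of 6 core genes in the edgeR test as reported and under 12 other settings, on a log axis, with the threshold of 0.05 as a dashed line. Hspg2 passes in 8 of the 12 other settings, Sdc4 in 5 and Sdc3 in 4, and their points run from 0.000219 to 0.255.

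How many cores passed depended on the test. The DESeq2 Wald test called Sdc4 higher and Sdc2, Sdc3, Gpc4, Gpc6 and Hspg2 lower, in a fit that called 13.0% of all genes. Limma voom called Sdc4 higher and Sdc3 and Hspg2 lower, with 7.65% of all genes called. The share of all genes called in the other settings was 1.56% without the mouse block, 5.43% with library totals, 5.54% with median-of-ratios factors, 5.65% with upper-quartile factors, 4.38% with no low-count filter and 8.25% with a stricter one. It was 1.54%, 1.96%, 1.18% and 3.95% without mouse 1, 2, 3 and 4. Under all 12 other settings each fold change of Sdc4 was positive (0.54 to 0.88) and each of Sdc3 (-0.47 to -0.37) and Hspg2 (-3.12 to -2.18) negative. None of the enzymes of supply, linker, chain, modification or removal passed in any setting in which it was tested.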

How the data were processed

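RNA-seq of 8 libraries was analysed, 4 per group. Per the submitters' processing notes, the software named is bcl2fastq, STAR 2.0.4b and Subread (featureCounts 1.45) on GRCm38; roles and options are not given. The authors deposited raw counts per gene, CPM of each library's own total, and RPKM, which is that CPM per kilobase of gene length. Both relations held in every library. The deposited CPM was not used.

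Symbols came from GENCODE M21 and promoter sequences from RefSeq (GRCm38.p6). The test on counts was that of edgeR 4.0.16, run in R 4.3.3 (quasi-likelihood F test, TMM, mouse as block). Genes needed edgeR's filter (minimum count 10, minimum total 15). The SE is the fold change over the root of F. DESeq2 1.42.0 and limma 3.58.1 were alternatives. The script was tested on simulated counts. Pairing rests on the labels, which give each library a mouse number shared by its mtD2+ and mtD2- libraries. Deviations of a mouse's libraries from their group means correlated at 0.0385, 0.0704, 0.145 and 0.251 for mice 1 to 4. Between replicates, chi-square over its degrees of freedom was 37.9 to 168, so none was a repeat deposit.

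The members and gene lists were chosen with earlier results of these data known. Every member is named, and from each other pathway list the called genes and 3 more of smallest p. One gene that this rule names is not reported here. Intervals are 95%.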

Additional observations from a re-analysis of the deposited data

Results flagged for a closer look

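In 9 of 66 groups of 4 libraries (33 genes in 2 populations) a library lay far from the other 3, with a gap to the nearest above Dixon's 95% critical share of the group's range. About 1 in 20 groups of normally distributed values is marked this way by chance. That rate need not hold for genes with few reads, and Hs6st2 in mtD2+, with 0 counts, could not be marked. Ext1 in mtD2+ was high in mouse 4, at 82.8 CPM against 66.5 to 68.8 (gap 0.859 of the range), and Hs2st1 in mtD2+ was high in mouse 3, at 18.6 CPM against 11.9 to 12.8 (0.878). Sdc2 in mtD2+ was low in mouse 2, at 0.891 CPM against 1.98 to 2.19 (0.84).

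The other 6 were genes with few reads, among them Gpc1 with 127 counts over mtD2+ and 181 over mtD2-. In mtD2+, Sulf1 reached 1.78 CPM in mouse 2, against at most 0.137 (0.923), and Gpc4 reached 1.2 CPM in mouse 3, against at most 0.0456 (0.962). In mtD2-, Gpc1 reached 6.49 CPM in mouse 4, against 0.265 to 1 in the others (0.882). Also in mtD2-, Xylt1 reached 0.654 CPM in mouse 1, against at most 0.046 (0.93), and Hs3st3b1 reached 2.9 CPM in mouse 3, against at most 0.414 (0.857). Hs6st2 had its single count in the mtD2- library of mouse 2 (1).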

How the results depend on the processing

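Over all genes, 767 were called, 519 higher and 248 lower in mtD2+ (67.7% higher), and with plain library totals as the scaling 407 and 349 (53.8% higher). The pairing mattered: without the mouse block 218 genes were called, 147 higher and 71 lower, and 0 members. DESeq2 called 1816 genes. Leaving out each mouse in turn left 166 to 555 genes, 0 to 1 members, 0 to 1 higher and 0 to 1 lower. The reported count was 1 member, 0 higher and 1 lower. Library totals gave 2 members (2 lower), no low-count filter 3 (1 higher, 2 lower), the stricter filter 3 (1 and 2), limma voom 3 (1 and 2) and DESeq2 6 (1 and 5). The cause was not tested, except that fewer mice leave less power by construction.

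Of 354 values of single members under these settings, 327 kept their direction and side of the threshold, 13 newly passed, 4 lost the call and 10 changed sign, all in 7 genes that were never called. B3gat3 was at 0.01 with upper-quartile factors. Over the fits that each leave out 1 mouse, log2 fold changes ran from -0.08 to 0.38 for Slc35b2, -0.15 to 0.05 for B3gat3, -0.26 to 0.09 for Ext2, -0.19 to 0.02 for Extl2, -0.38 to 0.03 for Ndst1, -0.08 to 0.01 for Hs6st1 and -0.18 to 0.22 for Gpc1. Depth limits the genes with few reads: Xylt1 had 54 counts over mtD2+ and 19 over mtD2-, and Gpc6 33 and 201.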
